A study of Homo sapiens with 6 samples.

Results

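Nonsense-mediated decay (NMD) transcripts are the messages that the GENCODE v44 annotation marks as predicted targets of a cytoplasmic surveillance pathway. They were examined in K562 cells, an erythroleukemia line that expresses embryonic and fetal globins, by taking every transcript of the type nonsense_mediated_decay in the deposited transcript estimates. The type is an annotation drawn from transcript structure, so membership rests on no measured value, although this class was taken up with earlier results of these data known. There were 21328 such transcripts among 251612 transcripts matched to the annotation, and they belonged to 7805 genes. Of these genes, 7503 also had a transcript of the type protein_coding, and 302 genes with 484 NMD transcripts did not. The study infected K562 cells overnight with lentivirus from pLKO.1 plasmids carrying a short hairpin RNA (shRNA), against luciferase for the control group (shCtrl) or against PCBP1 for the knockdown group (shPCBP1). All cells of both groups then went through 4 days in 3 µg/ml puromycin, and poly-A selected RNA was sequenced as paired 150-cycle reads. Each group had 3 libraries, labelled only by replicate number, and p-values therefore measure the spread between these libraries, which may be technical.

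In NMD, a ribosome that stops well upstream of an exon junction leaves the exon junction complex on the message downstream of it, and the UPF1 helicase with the SMG proteins then directs the message to degradation. Many genes make such a message by skipping an exon, including a poison exon or shifting a splice site, and several splicing regulators limit their own level in this way. PCBP1 is an RNA-binding protein that recognizes C-rich sequence, acts in splicing and mRNA stability, and carries iron to its client proteins. For each gene, the NMD share was the summed TPM of its NMD transcripts as a percent of NMD plus protein_coding TPM, where TPM is an abundance corrected for transcript length and scaled to the same total in every library. The comparison addressed whether the balance between the NMD form and the coding form differed after PCBP1 knockdown. A share can differ through either form, so both levels are shown for the genes that passed the test of the share and for some others. Steady-state RNA does not separate synthesis from decay.

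The libraries held 67066747 to 140522444 estimated counts. PCBP1 itself had 40566, 38409 and 37799 normalized counts in shCtrl and 6625, 7277 and 7221 in shPCBP1, so the groups were far apart (log2 fold change −2.47, SE 0.0439). The erythroid genes GATA1, KLF1 and TFRC had at least 106.7 TPM in every library, and CD3E, ALB and MYH7, markers of other cell types, had at most 0.129 TPM.

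Sequences of the most abundant, or main, NMD transcript of a gene show where translation would end by the annotation. In 5 of the 6 genes that passed the share test (NAPRT is not shown), the premature stop codon of the main NMD transcript, in capitals, followed these bases of the spliced transcript (GRCh38, transcript strand, stop codon positions given).
KAT2A-202, chr17:42119241-42119243: ctcatcctcactcacttccccaagTAA
POLD1-211, chr19:50417182-50417184: tgtatcagaaggaggtatcccatcTGA
MINK1-209, chr17:4881169-4881171: agatcaaacaggagatcaacatgcTGA
GUSB-204, chr7:65979503-65979505: ttactttgtccagaacacatatttTGA
HAUS5-206, chr19:35618618-35618620: tggtctcccagcggagcaccctccTGA

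KAT2A-202 shows the simplest arrangement, because the stop codon is formed by the splice site that the NMD form passes over. The coding form KAT2A-201 leaves the exon at the first 5′ splice site below, and KAT2A-202 reads on for 191 bases to the second, with the GT of each intron start in capitals. The T of the unused GT is the first base of the stop codon printed above.
KAT2A coding form, chr17:42119236-42119253: cttccccaaGTaaggctc
KAT2A NMD form, chr17:42119045-42119062: ggatggcagGTacatagc

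The next set shows the 3′ splice sites of exons that the main NMD transcript lacks, with the AG at the intron end in capitals. The sites of NAPRT and UBXN6, which also have a larger share in shPCBP1, are not printed. The STXBP2 exon has 81 bases, which does not shift the reading frame, and its NMD transcript also holds an extra exon of 56 bases. It is printed to set the intron ends of genes with a larger share in shPCBP1 (POLD1 to VMP1) beside those of genes with a smaller share (BCL2L12 and AHCTF1). Of these, POLD1, HAUS5 and GUSB passed the share test, and the bases before most of the first 6 exons are rich in C while those before the VMP1 and AHCTF1 exons are rich in T.
POLD1, chr19:50415697-50415726: cccacccgccaccccatctccacgcAGgat
HAUS5, chr19:35618375-35618404: ccctcagcagctcttcccccaccccAGacc
GUSB, chr7:65979909-65979938: ccctccccgtatctcctgtgtctgcAGtgg
PTPN23, chr3:47404625-47404654: gcctgcttctcccatcctgccccccAGaat
STXBP2, chr19:7643138-7643167: ccccaacccccaccctgcaccctgcAGtat
NDUFV1, chr11:67611870-67611899: gcctgctaattgcccctcgtcacccAGacg
VMP1, chr17:59737426-59737455: tatttattttttttatttgtttttaAGatt
BCL2L12, chr19:49666992-49667021: gtcagtctctgaagtcctcctctccAGaag
AHCTF1, chr1:246843926-246843955: agatacagttttttcaactttttttAGcta

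The last set shows the 3′ splice sites of exons that are present in the NMD transcript and absent from the main coding transcript. MINK1 passed the share test with a larger share in shPCBP1, and the other 3 genes had a smaller one without passing.
MINK1, chr17:4859186-4859215: tcccaaggacttccatcccttccccAGgct
SRRM2, chr16:2768478-2768507: ataatgataagttttccgtctctacAGagg
CYB5B, chr16:69430217-69430246: atttttttttcttttttttggagacAGtct
AGAP3, chr7:151120493-151120522: ctcccctgaccccctttgattcaacAGcta

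NMD transcripts made up a small part of the poly-A RNA. They held 2.14%, 2.16% and 2.12% of all TPM in the shCtrl libraries and 2.22%, 2.24% and 2.21% in the shPCBP1 libraries, so every knockdown library was above every control library by a small margin. Protein_coding transcripts held 81.8 to 82.6% of TPM in the 6 libraries. Retained-intron transcripts, another class of unproductive RNA, held 5.18%, 5.33% and 4.96% in shCtrl and 4.96%, 4.95% and 5.11% in shPCBP1, and these groups overlapped. In bulk RNA, fewer cells that make a transcript and less of it per cell cannot be told apart. Most members were rare: 6146 of the 21328 transcripts were listed at 0 TPM in all 6 libraries, 16324 had a mean TPM under 0.5, and 324 had a mean of at least 10. The 484 NMD transcripts of genes without a protein_coding transcript held 0.0438 to 0.0469% of TPM in shCtrl and 0.0506 to 0.0533% in shPCBP1.

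Summed over the genes with both forms, the NMD share was 6.56%, 6.61% and 6.52% in shCtrl and 6.76%, 6.80% and 6.78% in shPCBP1. The groups did not overlap, and their means differed by 0.214 percentage points (6.56 ± 0.0465% against 6.78 ± 0.0214%, SD, n = 3 each; exact permutation test, two-sided, p = 0.1, the smallest p that 3 against 3 libraries allow). The median of the per-gene shares was 6.55%, 6.87% and 6.78% in shCtrl and 7.15%, 7.37% and 7.08% in shPCBP1. With estimated counts in place of TPM the summed share was 6.31%, 6.40% and 6.24% in shCtrl and 6.31%, 6.38% and 6.37% in shPCBP1, the groups overlapped, and the difference was 0.0382 points (exact permutation test, p = 0.6). The difference in the summed share therefore held for length-corrected values and not for counts. As a percent of all estimated counts, NMD transcripts held 2.79%, 2.82% and 2.77% in shCtrl and 2.83%, 2.86% and 2.84% in shPCBP1, without overlap.

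**Figure D1:**
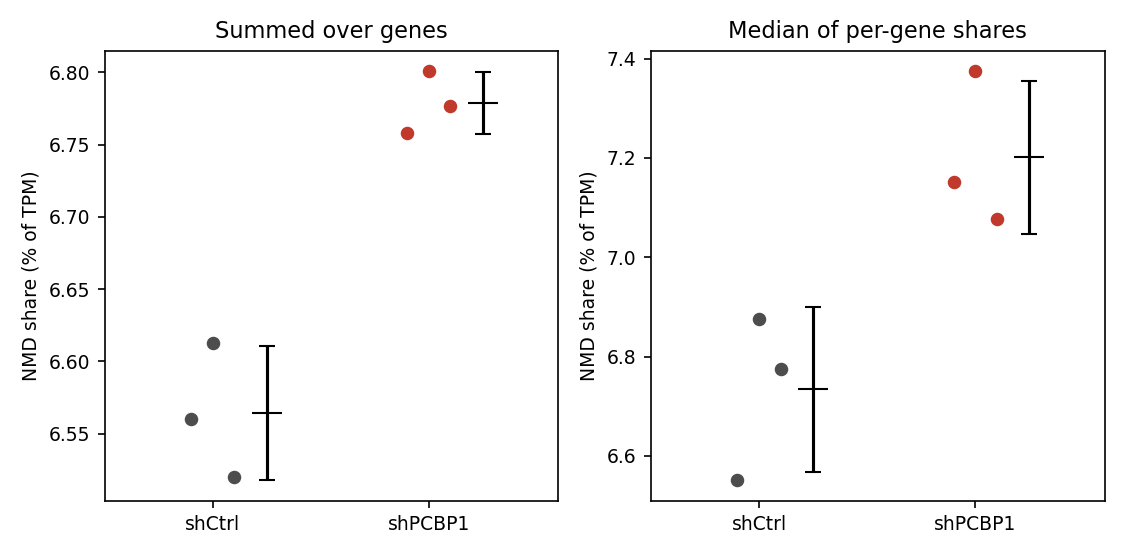
NMD share of each library (y axis, percent of TPM, not starting at 0), summed over genes on the left and as the median of per-gene shares on the right; points are libraries, and bars beside them show the mean and SD of the 3 libraries of a group. In both panels the shPCBP1 libraries lie above the shCtrl libraries, by 0.214 points for the sum and 0.467 points for the median.

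The most abundant NMD transcripts came from housekeeping genes, and few of them differed between groups. HNRNPA1-205, from the gene of a splicing repressor, led with a mean of 678.7 TPM, 37.8% of its gene's TPM over transcripts of every type. It had 710.6, 677.6 and 704.0 TPM in shCtrl and 680.7, 680.4 and 618.7 TPM in shPCBP1. It was followed by RPS3-218 and RPL11-204, of ribosomal protein genes, with means of 542.6 and 405.6 TPM. PDAP1-202 was higher in shPCBP1 in every library (197.1, 179.9 and 182.7 TPM against 228.5, 224.2 and 213.0 TPM; limma adjusted p = 0.0476, log2 fold change 0.25). YDJC-203 was lower in every shPCBP1 library (139.4, 132.0 and 139.3 TPM against 109.3, 107.4 and 108.8 TPM; limma adjusted p = 0.00939, log2 fold change −0.33). COX6C-206, of a cytochrome oxidase subunit gene, varied more within groups than between them, with 335.3, 351.9 and 89.9 TPM in shCtrl and 316.2, 336.5 and 122.9 TPM in shPCBP1, and replicate 3 was the lowest of each group.

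Per gene, the share ranged widely and differed little between groups. The test took 4106 genes with a mean of at least 10 estimated counts for each form and at least 2 TPM in total, and left 3397 genes with both forms untested. The mean share in shCtrl had a median of 6.86% over the tested genes, with 5% of genes under 0.436% and 5% above 52.6%. In 1879 genes the share stayed under 10% in all 6 libraries, and in 154 genes it stayed over 50%. The median difference between groups was 0.17 points, and 2310 genes lay above 0 and 1796 below.

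Of the 4106 genes, 6 had an adjusted p under 0.05 and a difference over 5 points (0.146% of the genes tested): GUSB, HAUS5, MINK1, POLD1 and NAPRT rose and KAT2A fell in shPCBP1. SART1, of a spliceosome protein, passed the adjusted p with a smaller difference of 4.21 points. At an unadjusted p under 0.05 there were 328 genes with a higher share (7.99%) and 202 with a lower share (4.92%) in shPCBP1. The groups did not overlap in 483 genes with a higher share (11.8%) and 319 with a lower share (7.77%). With estimated counts in place of TPM, limma called 9 genes, 4 higher and 5 lower, which shared 4 of the 6: HAUS5 did not pass (17.8 points, adjusted p = 0.0705) and NAPRT was under the threshold on size (4.65 points). The set also depended on the test: DESeq2 on the counts of both forms called 95 genes, including all 6, and edgeR on the same counts called 0, with 444 genes at an unadjusted p under 0.05. Leaving out 1 library gave between 0 and 5 calls: 0 without shCtrl replicate 1 or 2 or shPCBP1 replicate 1 or 3, 3 without shCtrl replicate 3, and 5 without shPCBP1 replicate 2.

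**Figure D2:**
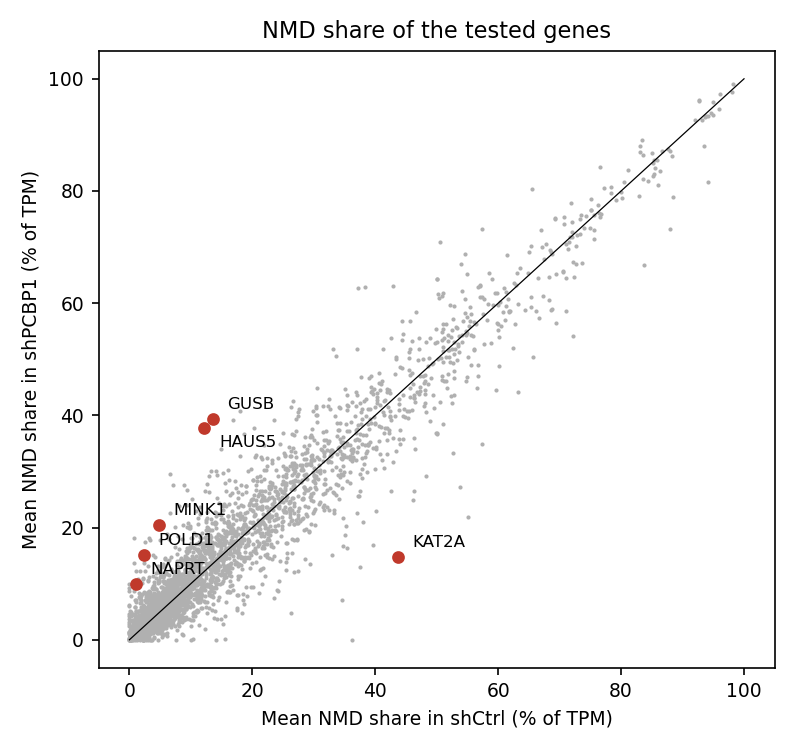
Mean NMD share in shPCBP1 (y axis) against shCtrl (x axis), both in percent of TPM, for the 4106 tested genes; the line marks equal shares and the larger labelled points are the 6 called genes. Most genes lie near the line, GUSB, HAUS5, MINK1, POLD1 and NAPRT lie above it, and KAT2A lies below it.

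GUSB encodes β-glucuronidase, a lysosomal enzyme, and lies at chr7:65960684-65982215 on the minus strand. Its NMD share was 10.4%, 14.4% and 15.8% in shCtrl and 42.5%, 37.5% and 38.1% in shPCBP1. Every knockdown library was above every control library, and the mean rose by 25.8 points (13.6 ± 2.78% to 39.3 ± 2.77%, SD, n = 3; limma adjusted p = 0.0278). The coding form carried most of this, with 39.1, 41.0 and 34.3 TPM in shCtrl and 11.9, 12.1 and 13.3 TPM in shPCBP1, while the NMD form had 4.55, 6.92 and 6.44 TPM and 8.80, 7.24 and 8.17 TPM. At the gene level GUSB fell (DESeq2 log2 fold change −1.02, SE 0.058, adjusted p = 1.18e-66). Its main NMD transcript GUSB-204, 51.2% of the NMD TPM, lacks a 185-base exon at chr7:65979727-65979911 and also uses another 5′ splice site. That transcript alone did not pass the transcript test (adjusted p = 0.34).

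HAUS5 encodes a subunit of augmin, the complex that branches microtubules in the spindle, and lies at chr19:35612735-35625355 on the plus strand. Its share was 11.03%, 13.5% and 12.05% in shCtrl and 36.8%, 33.2% and 43.1% in shPCBP1, with no overlap, a rise of 25.5 points (limma adjusted p = 0.0477). Both forms differed here: the NMD form had 1.11, 1.28 and 1.19 TPM in shCtrl and 3.31, 3.402 and 4.29 TPM in shPCBP1, and the coding form had 8.98, 8.20 and 8.70 TPM and 5.69, 6.84 and 5.65 TPM. HAUS5-206 lacks the 64-base exon at chr19:35618402-35618465. It rose from 0.235, 0.332 and 0.311 TPM to 2.35, 2.33 and 2.36 TPM, on 64.3 to 103.4 estimated counts in shCtrl and 374.9 to 475.3 in shPCBP1 (limma log2 fold change 1.85 on the log2(TPM + 0.5) scale, which understates low levels; adjusted p = 0.0079).

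MINK1 encodes a kinase of the STE20 family and lies at chr17:4833340-4898061 on the plus strand. The share was 3.45%, 5.42% and 5.47% in shCtrl and 17.7%, 21.8% and 21.6% in shPCBP1, a rise of 15.6 points with no overlap (limma adjusted p = 0.0257). Here an exon was gained, not lost: MINK1-209 contains a 116-base exon at chr17:4859213-4859328 that the main coding transcript lacks. This transcript held 81.7% of the gene's NMD TPM and rose from 0.58, 0.676 and 0.955 TPM to 3.50, 4.05 and 4.17 TPM (limma adjusted p = 0.00852). The coding form had 23.3, 26.2 and 22.5 TPM in shCtrl and 16.8, 16.5 and 18.8 TPM in shPCBP1, and the gene as a whole did not pass (DESeq2 adjusted p = 0.0817).

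POLD1 encodes the catalytic subunit of DNA polymerase delta and lies at chr19:50384204-50418018 on the plus strand. Its share was 2.59%, 1.46% and 3.01% in shCtrl and 14.1%, 17.5% and 13.6% in shPCBP1, a rise of 12.7 points (limma adjusted p = 0.0175). The coding form had 69.7, 69.5 and 69.1 TPM against 36.4, 35.6 and 35.8 TPM, a tight set of values in both groups. The NMD form moved the other way, and POLD1-211, which lacks the 103-base exon at chr19:50415724-50415826, rose from 1.37, 0.704 and 1.76 TPM to 5.62, 7.24 and 5.43 TPM (limma adjusted p = 0.023). The whole gene fell (DESeq2 log2 fold change −0.66, SE 0.04, adjusted p = 1.15e-57). A coding gene without a symbol overlaps POLD1 on the same strand and had at most 0.58 TPM in any library.

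NAPRT encodes nicotinate phosphoribosyltransferase, which makes NAD from nicotinic acid. Its share was 1.26%, 1.32% and 0.469% in shCtrl and 12.1%, 5.21% and 12.4% in shPCBP1, a rise of 8.87 points (limma adjusted p = 0.0447). This was the thinnest of the 6 calls, since NAPRT-212 rested on 11.4 to 19.9 estimated counts in shCtrl and 33.8 to 76.5 in shPCBP1 and did not pass by itself (adjusted p = 0.124). The coding form had 25.3, 24.8 and 23.8 TPM in shCtrl and 8.74, 10.4 and 10.5 TPM in shPCBP1, and the gene level fell (DESeq2 log2 fold change −0.79, SE 0.0689, adjusted p = 4.74e-28). The NMD transcript has an incomplete end in the annotation and the weakest transcript support level, 5.

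KAT2A, also called GCN5, encodes the histone acetyltransferase of the SAGA complex and lies at chr17:42113111-42121367 on the minus strand. It was the gene called in the opposite direction: its share was 43.6%, 46.4% and 41.0% in shCtrl and 13.7%, 14.9% and 15.4% in shPCBP1, and it fell by 29.0 points (limma adjusted p = 0.0175). KAT2A-202, the transcript whose stop codon sits at the passed-over splice site printed above, had 14.9, 16.1 and 13.5 TPM in shCtrl and 4.66, 4.84 and 4.78 TPM in shPCBP1 (limma log2 fold change −1.54, adjusted p = 0.00233). The coding form had 19.7, 18.6 and 21.1 TPM in shCtrl and 29.2, 27.5 and 26.3 TPM in shPCBP1. The forms moved in opposite directions and the gene level did not pass (DESeq2 log2 fold change −0.04, SE 0.0479, adjusted p = 0.571). KAT2A-202 is annotated with an incomplete end and support level 5, and an overlapping gene on the same strand had at most 0.884 TPM.

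**Figure D3:**
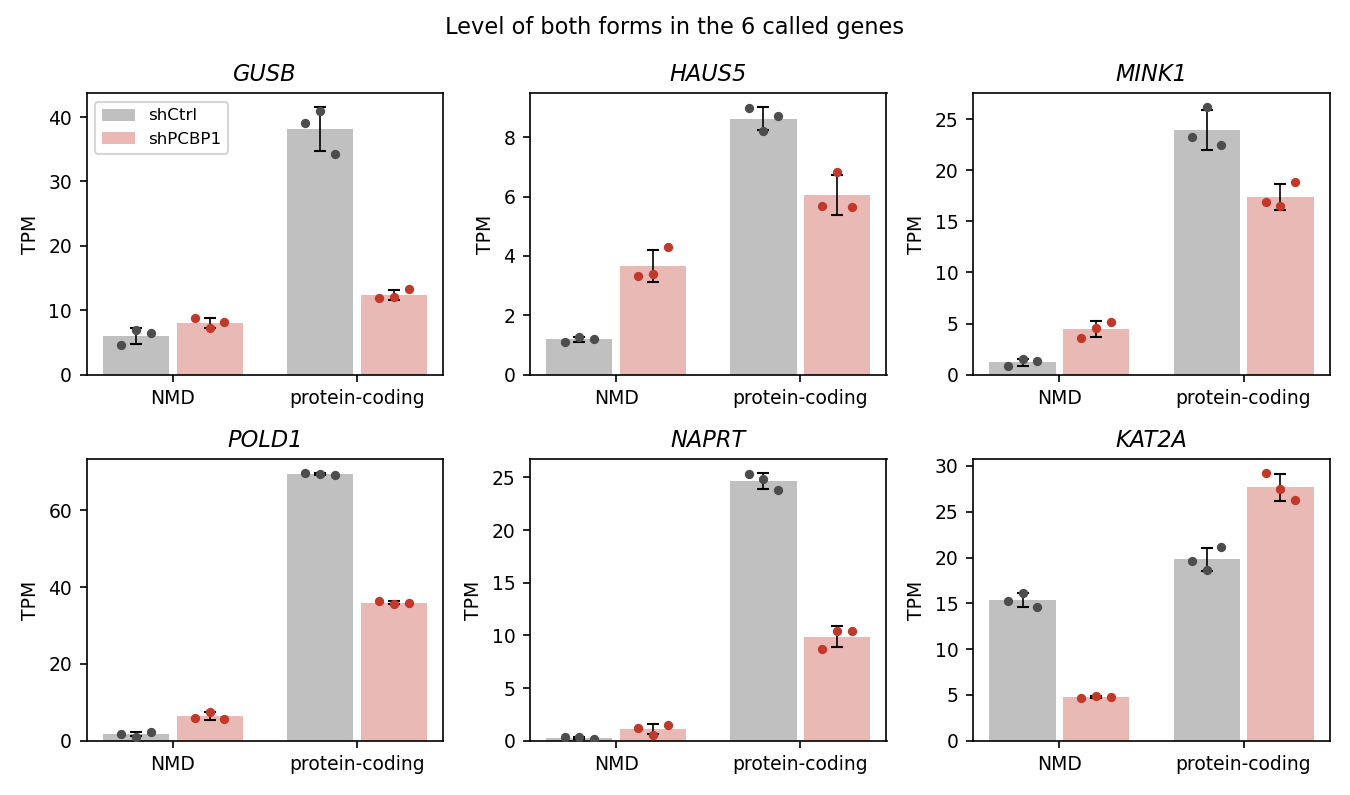
TPM (y axis, from 0, a separate scale in each panel) of the NMD form and the protein-coding form in the 6 genes called in the share test; bars are means, points are libraries and error bars are SD (n = 3). In GUSB and POLD1 the coding bars drop to under 15 and under 40 TPM in shPCBP1, and in KAT2A the NMD bar drops while the coding bar is taller.

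Genes next in order of p, with groups that did not overlap and a difference over 5 points, did not pass the adjusted threshold, and their values follow as a description. On the higher side, NDUFV1, of the flavoprotein subunit of respiratory complex I, had shares at 2.17%, 2.50% and 3.64% in shCtrl and 8.08%, 8.18% and 7.55% in shPCBP1 (limma adjusted p = 0.0515). PTPN23, of an endosomal sorting protein, had 10.1%, 9.58% and 8.60% against 32.5%, 20.4% and 27.4% (adjusted p = 0.0785), with PTPN23-206 lacking a 128-base exon. In both genes the main NMD transcript itself rose in the transcript test (log2 fold change 1.49 and 1.30, adjusted p = 0.0376 and 0.0247). VMP1, of an endoplasmic reticulum protein needed for autophagosome formation, had 8.16%, 5.94% and 7.95% against 15.4%, 17.4% and 17.1% (adjusted p = 0.0785). UBXN6, of a cofactor of the p97 ATPase, had 4.93%, 6.24% and 4.47% against 12.4%, 11.6% and 11.8% (adjusted p = 0.0759). STXBP2, of a syntaxin-binding protein of granule exocytosis, had 5.404%, 4.96% and 3.84% against 9.66%, 11.2% and 9.96% (adjusted p = 0.0785). For UBXN6 and STXBP2 the coding form was lower in every shPCBP1 library, as in GUSB, and the gene level fell (DESeq2 log2 fold change −0.37 and −0.43). WDR48, of a deubiquitinase cofactor, had 3.06%, 1.03% and 3.25% against 12.9%, 16.5% and 11.8% (adjusted p = 0.0597), and WDR48-204 held 0 to 11.1 estimated counts in shCtrl and 17.3 to 46.3 in shPCBP1. ANKRD13B varied most within a group, at 0, 2.07% and 0 against 6.05%, 28.5% and 20.1% (adjusted p = 0.0759). With estimated counts in place of TPM the differences were smaller for VMP1 (1.47 against 9.28 points), WDR48 (3.25 against 11.3), UBXN6 (2.30 against 6.75) and NDUFV1 (1.89 against 5.17), and larger for ANKRD13B (26.9 against 17.5). With complete, well supported NMD transcripts only, those of WDR48 and STXBP2 were 4.35 and 2.97 points.

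On the lower side, AGAP3, of a GTPase-activating protein for ARF proteins, had shares at 10.1%, 11.3% and 10.6% in shCtrl and 4.75%, 3.99% and 4.17% in shPCBP1 (limma adjusted p = 0.0515). CYB5B, of cytochrome b5 of the outer mitochondrial membrane, had 18.5%, 18.9% and 19.8% against 5.45%, 9.44% and 8.48% (adjusted p = 0.0785). NUP210, of a nuclear pore membrane protein, had 14.4%, 15.3% and 13.5% against 7.39%, 7.95% and 6.19% (adjusted p = 0.0785), while its coding form held 66.0 to 68.1 TPM in all 6 libraries. SRRM2, of a scaffold protein of nuclear speckles, had 19.3%, 21.3% and 16.1% against 9.10%, 8.50% and 10.7% (adjusted p = 0.0811). For AGAP3, CYB5B, NUP210 and SRRM2 the main NMD transcript fell in the transcript test (log2 fold changes −1.02, −1.22, −1.05 and −1.03, adjusted p = 0.0176, 0.023, 0.017 and 0.0114). METTL26 had 43.0%, 40.8% and 36.4% against 22.1%, 20.9% and 25.8%, with its coding form at 68.8 to 74.9 TPM throughout. ESS2, of a spliceosome-associated protein, was mostly NMD form in both groups, at 84.9%, 83.8% and 82.2% against 72.4%, 62.6% and 65.3%. PARP6, CLUAP1, BCL2L12, AHCTF1 and ATP2B4 had differences of −26.6, −24.5, −9.74, −13.0 and −9.99 points with adjusted p between 0.109 and 0.118. ATP2B4, of a plasma membrane calcium pump, had its NMD form listed at 0 in all 3 shPCBP1 libraries and at 1.49, 1.55 and 0.489 TPM in shCtrl. With estimated counts in place of TPM the difference was −0.196 points for AHCTF1, −8.26 for CLUAP1, −1.53 for AGAP3, −4.81 for NUP210 and −6.04 for SRRM2. With complete, well supported NMD transcripts only, that of PARP6 was −10.9 points.

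**Figure D4:**
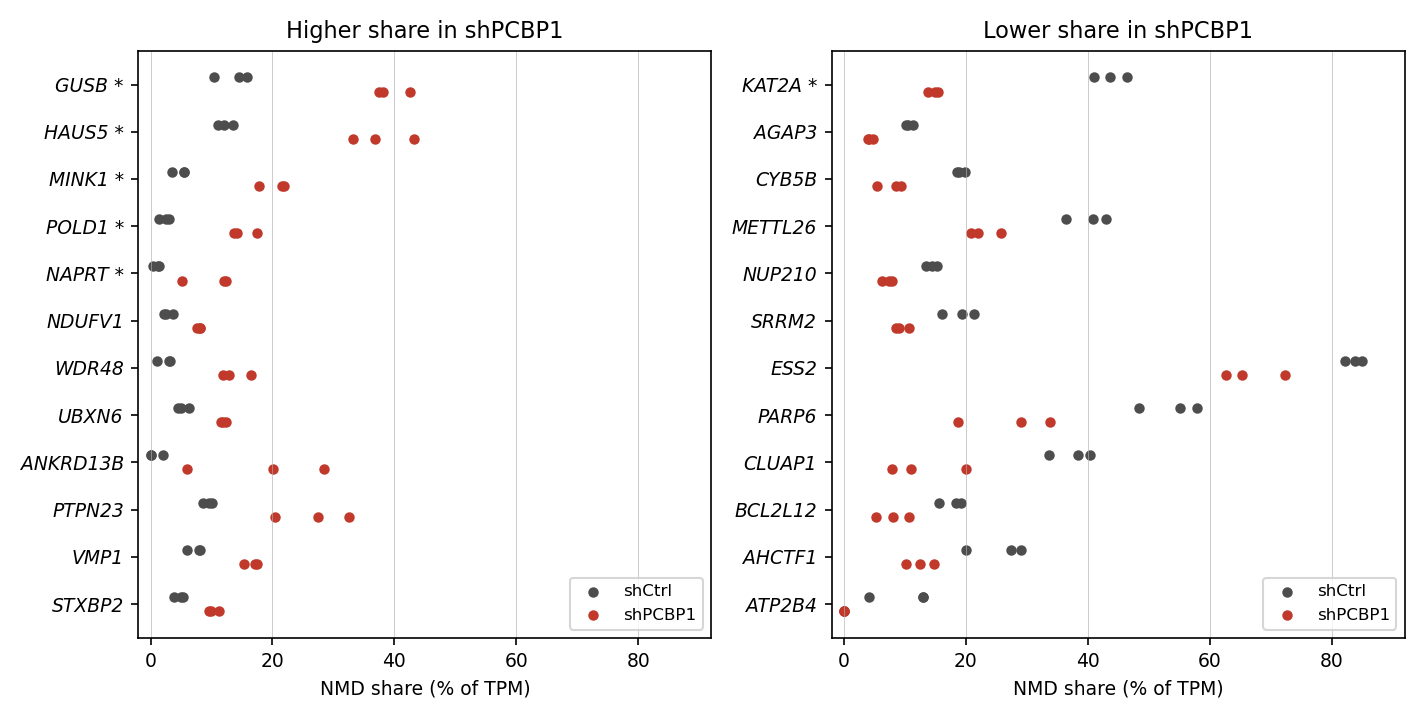
NMD share (x axis, percent of TPM) of 24 genes in each library, gray for shCtrl and red for shPCBP1; an asterisk marks the 6 genes called in the share test, and the others did not pass. The groups do not overlap in any of these genes, a property used to choose them, and the largest separations are those of KAT2A, GUSB and HAUS5 among the called genes.

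In all, 230 genes had an unadjusted p under 0.05, no overlap and a difference over 5 points, 138 with a higher and 92 with a lower share in shPCBP1. They were chosen on these values, so the counts below describe them and test nothing. Among the 138, the NMD form was higher by over 0.5 on the log2 scale in 90 genes, the coding form was lower by as much in 39, and both held in 16. Among the 92, the NMD form was lower by as much in 62 genes, the coding form was higher in 11, and both held in 2. The gene level, from the same reads, fell in 57 of the 138 genes and rose in 20 (DESeq2 adjusted p under 0.05). Among the 92 it fell in 13 and rose in 29. Over the 17095 genes with an adjusted p, 13.5% fell and 17.7% rose. That set is wider than the 4106 genes of the share test, which passed filters on level, and rates over the 4106 alone were not computed.

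NMD transcripts passed the test of single transcripts about as often as transcripts of other types. In the transcript test, 43 of 5004 NMD transcripts with a mean TPM of at least 0.5 had an adjusted p under 0.05 and a log2 fold change over 1 in size (0.859%), against 0.94% of the 61505 transcripts of all types and 1.11% of the 30063 protein_coding transcripts. Of the 43, from 43 genes, 27 rose (0.54% of NMD transcripts, against 0.463% of all types) and 16 fell (0.32%, against 0.476%). Transcripts listed at 0 TPM in a whole group made up 9 of them, 5 in shCtrl and 4 in shPCBP1. The other 34 had a value above 0 in both groups, 22 higher and 12 lower. Leaving out any 1 library lowered the number called to between 9 and 21, and the balance of directions was not stable. It turned to 5 higher and 9 lower without shPCBP1 replicate 1, 3 and 8 without replicate 2, 4 and 10 without replicate 3, and 2 and 7 with no filter on low values.

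Several of these transcripts belong to genes that the share test did not call, and those named here were picked after their values were seen. LDHA-222, of lactate dehydrogenase A, had 6.52, 7.76 and 9.002 TPM in shCtrl and 23.8, 19.9 and 36.2 TPM in shPCBP1 (limma log2 fold change 1.68, adjusted p = 0.024). METTL26-208, which carries an extra 175-base exon, went from 20.2, 16.1 and 17.0 TPM to 3.60, 3.30 and 5.39 TPM (log2 fold change −2.01, adjusted p = 0.00779). ENGASE-201, of a cytosolic glycosidase that acts on N-glycans, went from 3.13, 3.16 and 2.58 TPM to 0.508, 0.328 and 0.621 TPM (log2 fold change −1.82, adjusted p = 0.0114). PDLIM7-207 had 7.67, 6.28 and 6.61 TPM in shCtrl and 2.42, 2.43 and 1.38 TPM in shPCBP1, and WAC-207 had 4.24, 5.97 and 4.86 TPM and 1.92, 1.11 and 1.31 TPM. POLE-218, of the catalytic subunit of DNA polymerase epsilon, had 3.61, 3.13 and 2.06 TPM in shCtrl and was listed at 0 in all shPCBP1 libraries. SART1-206 had 0 TPM in each shCtrl library and 1.54, 1.09 and 1.12 TPM in shPCBP1.

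The structure of the NMD form was compared with that of the coding form, taking the most abundant transcript of each in every tested gene. The annotated stop codon lay over 50 bases before the last exon junction in 4100 of the 4106 main NMD transcripts, at a median distance of 386.5 bases. Because the type is itself drawn from transcript structure, this count describes the annotation and tests nothing. Differences were counted from the coding start to the exon that holds the stop codon. Over all tested genes, the NMD form differed by a single skipped exon in 20.2% and by a single extra exon in 25.2%. Forms with several differences, which can include more skipped or extra exons, were counted apart (21.0%). Among the 138 genes with a higher share, 44 (31.9%) differed by a single skipped exon and 29 (21.0%) by a single extra exon. Among the 92 with a lower share the order was the other way, with 11 (11.96%) skipped and 34 (37.0%) extra. The skipped exons had a length that is no multiple of 3 in all 44 and all 11 of these cases, against 98.1% over all 830. An annotated incomplete end was present in 46 of the main NMD transcripts of the 92 genes, 27 of those of the 138 (19.6%) and 21.7% of all, and what this does to the estimates was not tested.

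**Figure D5:**
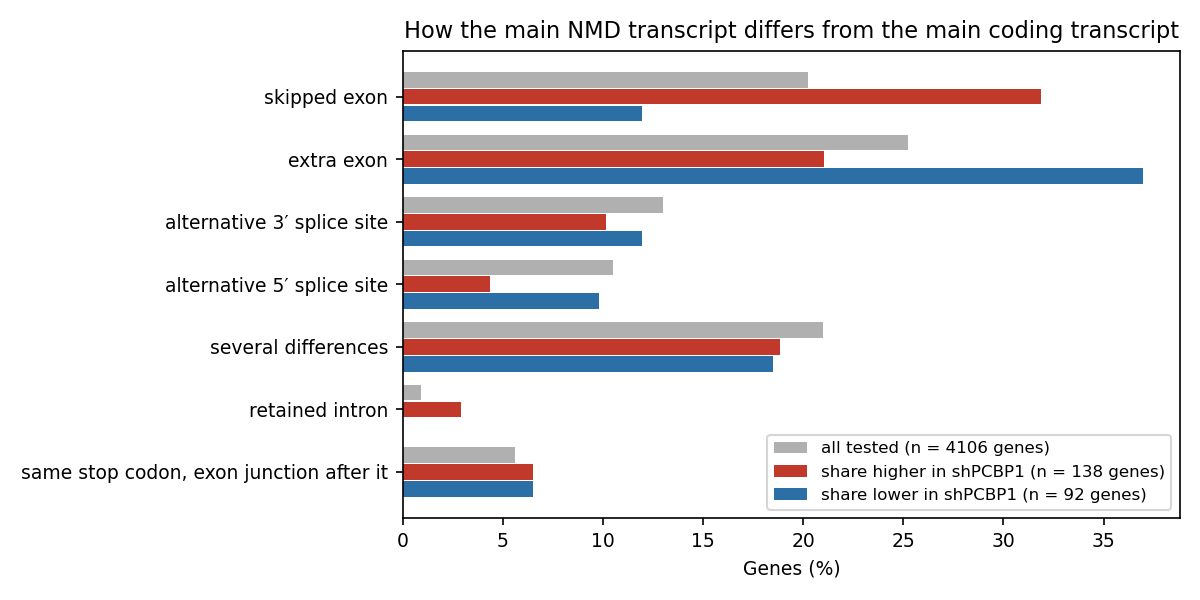
Percent of genes (x axis) whose main NMD transcript differs from the main coding transcript by each kind of structure, for all 4106 tested genes (gray), the 138 with a higher share in shPCBP1 (red) and the 92 with a lower share (blue); rarer classes are left out. Genes with a single skipped exon are 31.9% of the red set and 11.96% of the blue set, and those with a single extra exon are 21.0% and 37.0%.

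The base composition of the intron before the skipped exons was described in the same sets, which were chosen on their shares, without a test. In the 50 intron bases before the exon, C made up a median of 20% over all 830 genes that differed by a single skipped exon, with 14% and 32% as quartiles. The median was 35% in the 44 genes with a higher share, with quartiles of 21.5% and 42.5%, and 16% in the 11 with a lower share, with quartiles of 13% and 25%. Upstream of extra exons the medians were 20% over all 1036 genes, 22% in the 29 with a higher share and 22% in the 34 with a lower share. Among genes printed above, C made up 66% before the POLD1 exon, 48% before those of HAUS5, PTPN23 and STXBP2, 46% before that of GUSB, 36% before that of NDUFV1, 28% before that of BCL2L12, 14% before that of AHCTF1 and 4% before that of VMP1. C-rich sequence upstream of exons was already known as a pattern of these libraries, so these values are no independent evidence of it.

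The proteins that carry out NMD were examined at the gene level in a list of 30. By DESeq2, 15 rose, 2 fell and 13 did not pass, against 17.7% and 13.5% of all genes, and the changes were small, with a median log2 fold change of 0.13 over the list and 0.00187 over all genes. Lists of other RNA-processing genes also held more rises than falls. In the spliceosome list, 17 of 37 genes rose and 1 fell (median 0.10). Of 40 RNA-binding regulators, 19 rose and 4 fell (median 0.08), and PCBP1 itself, the target of the knockdown, is among the 4. In the SR family, 7 of 16 genes rose and 2 fell (median 0.09). UPF1, the central helicase, had a log2 fold change of 0.24 and rose (SE 0.0416, adjusted p = 2.28e-07), and its kinase SMG1 rose by 0.19 (SE 0.0333, adjusted p = 1.01e-07). SMG5, an adaptor of decay, rose by 0.31 (adjusted p = 7.01e-09), and UPF2 did not pass (log2 fold change 0.08, adjusted p = 0.25). Of the exon junction complex, EIF4A3, RBM8A, MAGOHB and CASC3 rose by 0.24, 0.29, 0.27 and 0.19, and the associated RNPS1 rose by 0.33 (adjusted p = 1.13e-14). MAGOH had a log2 fold change of 0.13 and did not pass (adjusted p = 0.0737). UPF3A fell by 0.16 (adjusted p = 0.00655), and XRN1, the 5′ to 3′ exonuclease that degrades decapped messages, fell by 0.30 (SE 0.0543, adjusted p = 4.93e-07).

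The NMD shares of the same factors gave 0 calls with limma, and also 0 with DESeq2 and edgeR on the counts of both forms. Of the 12 tested, CASC3 alone had an unadjusted p under 0.05, against 7.99% with a higher and 4.92% with a lower share over all tested genes. Its shares were 4.70%, 6.86% and 3.63% in shCtrl and 1.55%, 3.23% and 2.60% in shPCBP1 (limma adjusted p = 0.275). The list's median difference was 0.212 points, against 0.17 over all tested genes.

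Splicing regulators, many of which use NMD forms to limit their own level, gave 0 calls in the limma share test and 0 with edgeR on counts, while DESeq2 on the counts of both forms called SRRM2 and CLK1, both lower. In the SR family list, 1 of 16 tested genes had a higher and 1 a lower share at an unadjusted p under 0.05, namely TRA2A and SRRM2, against 7.99% and 4.92% of all tested genes. The list's median difference was 0.198 points. Among 27 hnRNP and other RNA-binding regulators, 1 was higher and 3 were lower, with a median difference of −0.0553 points. CLK1, a kinase of SR proteins, had shares at 40.1%, 44.2% and 43.3% in shCtrl and 21.7%, 28.0% and 29.6% in shPCBP1 without passing (adjusted p = 0.122). QKI, an RNA-binding splicing regulator, had 45.2%, 43.2% and 43.7% against 33.3%, 33.5% and 38.1% (adjusted p = 0.254). Between group means, the QKI coding form was higher in shPCBP1 by 0.58 on the log2 scale, and the NMD form differed by 0.03. PCBP2, the close relative of PCBP1, had 2.22%, 1.95% and 1.595% against 2.74%, 2.61% and 2.50% (adjusted p = 0.324), and its gene level fell by 0.24 on the log2 scale (DESeq2 adjusted p = 2.47e-12). HNRNPDL had 5.98%, 5.90% and 6.34% against 3.65%, 4.31% and 4.81% (adjusted p = 0.249).

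The other 3 lists gave 0 calls with limma, DESeq2 and edgeR. Of 17 spliceosome genes tested, 1 had a higher share and 0 a lower share at an unadjusted p under 0.05, with a median difference of 0.0799 points. Of 34 ribosomal protein genes, 3 were higher and 2 lower, near the 7.99% and 4.92% of all tested genes, and the median share was 0.394% in shCtrl. Of 22 iron and heme genes, 1 was higher: FDXR, of the ferredoxin reductase that feeds electrons to iron-sulfur cluster assembly, had 4.52%, 4.23% and 4.04% in shCtrl and 9.93%, 8.17% and 9.03% in shPCBP1, without passing (adjusted p = 0.0759), while its gene level fell (DESeq2 log2 fold change −1.13, SE 0.0524, adjusted p = 2.03e-99).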

How the data were processed

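The deposited files hold, per library, estimated counts and TPM for each transcript, which the authors made with Salmon (version 1.10.2) from poly-A reads of K562 cells. The genome named by the submitters is hg38, and the annotation release of the index is not given in the sources used here. Transcripts were matched to GENCODE v44 by identifier without version (251612 of 252045, and at most 0.147% of counts in unmatched transcripts). Libraries held 67066747 to 140522444 estimated counts. Same-group libraries differed beyond counting noise (chi-square per degree of freedom 7.21 to 19.8), so each counted as 1 replicate. The members and gene lists were chosen with earlier results of these data known.

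From TPM, the log2 ratio of summed NMD to protein_coding TPM per gene, 0.5 TPM added to each, was tested with limma (version 3.58.1; two-sided, group only, all 6 libraries, variance trend on mean total TPM) with Benjamini-Hochberg adjustment over all tested genes. Calls required an adjusted p under 0.05 together with a share difference over 5 points. Single transcripts were tested with limma on log2(TPM + 0.5). Estimated counts were rounded, summed per gene (sum of at least 10) and tested with DESeq2 (version 1.42.0). edgeR (version 4.0.16) and DESeq2 served as alternatives. Named genes were up to 12 per direction, called genes by size of difference first, then others in order of p among those with an unadjusted p under 0.05, no overlap, over 5 points and at least 5 TPM. Transcript sequences and exon positions are from GRCh38. The labels do not say whether equal replicate numbers mark paired samples, and the main tests did not pair them. Salmon divides reads that fit several transcripts of a gene, so a share rests on the reads that tell the forms apart, and a transcript at 0 TPM can be a failed estimate. Some marker genes are not reported here.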

Additional observations from a re-analysis of the deposited data

How the results depend on the processing

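The number of genes with a changed NMD share (6) depended on the settings. It was 0 with a pseudocount of 0.1 TPM, 21 with 1 TPM (15 higher) and 1 with no filter (0 higher, 1 lower). With complete, well supported NMD transcripts only, it was 5 of 1827 genes tested (5 higher, 0 lower), which shared 4 of the 6. It was 9 with estimated counts in place of TPM (4 higher, 5 lower). On counts of both forms it was 95 with DESeq2 (54 higher, 41 lower) and 0 with edgeR. The number lay between 0 and 5 when each library was left out in turn. Unadjusted p under 0.05 was reached by 471 genes at 0.1 TPM, 845 with no filter and 444 with edgeR. All 6 genes were among those called with a pseudocount of 1 TPM and with DESeq2. The number of changed NMD transcripts (43) was 9 with no filter, 168 with DESeq2, 68 with no size threshold, and 9 to 21 when each library was left out. Libraries that share a replicate number showed no shared deviation (correlations 0.0021 to 0.0447), and with the replicate number as a block the calls were 0 genes (503 at an unadjusted p under 0.05), 0 NMD transcripts (726) and 16 NMD factor genes. The NMD factor count (17) stayed between 13 and 19 in every alternative run. The summed share difference (0.214 points) stayed above 0 in every alternative run, from 0.0382 points with counts to 0.467 as a median. It was 0.192 to 0.239 with each library left out (exact permutation p = 0.2, the smallest possible there). As the groups of the summed share did not overlap, leaving out 1 library could not turn its sign. For the 24 named genes, no alternative turned the direction, although many changed the call. These genes were chosen for groups that did not overlap, so leaving out 1 library could not turn it. Runs on the same TPM shares left the differences as they were. Estimated counts in place of TPM moved 11 of the differences by over 1.5 times. In the alternatives that keep all libraries, calls were lost in 25 gene and setting pairs and gained in 33, out of 201. Only pairs of the 6 called genes could lose a call. With each library left out, 31 pairs lost a call and 1 gained it, out of 144. Over all these alternatives, KAT2A kept its call in 7 of 14 and POLD1 in 7 of 15. GUSB and MINK1 each kept it in 5 of 15, HAUS5 in 4 of 15 and NAPRT in 4 of 14. The causes were not tested. Shares of rare forms rest on few reads: NAPRT-212 had under 20 estimated counts in each shCtrl library.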
